A study of Mus musculus with 43 samples.

Results

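The genes described here are 10 components of the molecular circadian clock: Arntl (also called Bmal1), Clock, Per2, Per3, Cry2, Ciart, Bhlhe40, Bhlhe41, Rora and Dbp. They were found by their Ensembl identifiers in a table of 10127 genes, and all 10 were present. RNA came from 4 nuclei of the hypothalamus, each cut from frozen brain sections by laser capture: the arcuate nucleus (ARC), the dorsomedial nucleus (DMH), the paraventricular (PVN) and the ventromedial (VMH). Every mouse was a male on the C57/BL6 background, 17 to 19 weeks old, that lacked the Snord116 cluster on the paternal chromosome (Snord116+/-P, the line B6(Cg)-Snord116tm1.1Uta/J), and was either fed ad libitum or fasted for 24 hours. Every group thus carries the deletion, and wild-type mice were not analysed here. A total of 12 mice in 3 batches gave 41 libraries. ARC had 4 fasted and 5 fed libraries, DMH 5 and 6, PVN 5 and 5, VMH 6 and 5. Mice are named by state and label number, such as Fast-86 and Fed-111, and the replicates of a group are different mice, spread over the 3 batches. Mice were kept on a cycle of 12 hours of light and 12 hours of dark, and the clock time at which brains were taken is not given in the sources used here.

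The circadian clock is a feedback loop of transcription that runs in nearly every cell. CLOCK and ARNTL form a dimer that binds E-box elements and switches on the Per and Cry genes, whose proteins return to the nucleus and block the dimer. CIART, BHLHE40 and BHLHE41 repress the same E-box targets, RORA drives Arntl through ROR elements, and DBP carries the rhythm to output genes through D-box elements. The suprachiasmatic nucleus sets the phase from light, while the clocks of other hypothalamic nuclei and of the periphery can also follow the time of feeding.

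The DNA elements of this loop can be read in the promoters of the members, and the promoters that held the densest or clearest matches are shown. RefSeq promoters on GRCm38.p6 were found for 8 of the 10 members (all but Per2 and Bhlhe40), as 11 sequences. Each was searched on both strands for the E-box CACGTG, the E-box variant CACGTT, the D-box TTATGTAA or TTACGTAA, the ROR element TAGGTCA and the cyclic AMP response element TGACGTCA. The 250 bases before the start site are printed 5′ to 3′ along the gene, with matches in capitals, for Ciart at chr3:95882229-95882478, Bhlhe41 at chr6:145865421-145865670 and Per3 at chr4:151044666-151044915, all on the minus strand.
Ciart: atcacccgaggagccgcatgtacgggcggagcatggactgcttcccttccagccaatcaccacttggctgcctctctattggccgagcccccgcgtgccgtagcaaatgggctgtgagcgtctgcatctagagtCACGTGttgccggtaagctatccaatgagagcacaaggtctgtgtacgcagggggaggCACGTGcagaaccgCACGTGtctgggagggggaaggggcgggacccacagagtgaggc
Bhlhe41: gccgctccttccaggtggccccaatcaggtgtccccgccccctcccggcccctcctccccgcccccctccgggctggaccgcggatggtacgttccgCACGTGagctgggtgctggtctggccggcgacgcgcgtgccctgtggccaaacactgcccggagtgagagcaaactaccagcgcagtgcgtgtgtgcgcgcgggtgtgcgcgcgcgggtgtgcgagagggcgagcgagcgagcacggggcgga
Per3: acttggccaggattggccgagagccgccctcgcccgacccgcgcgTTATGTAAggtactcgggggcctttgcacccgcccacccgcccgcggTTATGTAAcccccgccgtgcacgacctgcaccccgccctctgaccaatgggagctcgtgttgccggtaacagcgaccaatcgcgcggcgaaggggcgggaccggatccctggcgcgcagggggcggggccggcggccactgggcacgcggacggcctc

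The Ciart promoter held 3 E-boxes, which began at positions -116, -58 and -44 from the start site, which is counted as 0. Of 32851 mouse promoters of the same length (300 bases, with 50 after the start site), 7.15% held at least 1 E-box and 0.0883% held 3 or more. Bhlhe41 held 1 E-box, at position -153. Per3 held 2 D-boxes, at positions -205 and -158, and a D-box was present in 1.06% of all promoters and 2 or more in 0.0244%. Cry2 held the E-box variant at position -166 (4.68% of promoters), and 1 of the 2 Arntl promoters held a ROR element at position 30 (2.61% of promoters). No searched element was found in these windows for Clock, Dbp or Rora, and the response element for cyclic AMP (1.79% of promoters) was found in no member. A match of letters is a description and not a measured binding site.

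The depth of the libraries was 1.94 to 8.23 M reads, with a median of 4.10 M. The labelled nuclei were checked against their markers. Npy was at 195 to 1226 CPM (reads of a gene scaled to the library's total) in ARC and at most 33.4 elsewhere, Npvf at 56.5 to 225 in DMH and at most 6.30 elsewhere, Avp at 395 to 1475 in PVN and at most 10.04 elsewhere, and Fezf1 at 172 to 256 in VMH and at most 21.9 elsewhere. Other markers were less clean: Gpr50, on the DMH list, reached 106 CPM in ARC and began at 104.9 in DMH, and Sox14, on the VMH list, began at 4.25 CPM in VMH and reached 13.3 in DMH and 8.29 in ARC. Of 9 markers of the neighbouring suprachiasmatic nucleus 4 were in the table, of which Avp is also the PVN marker above. Prok2 stayed at or under 14.2 CPM in every library, with the highest value in PVN, while Gpr176 (4.14 to 60.9 CPM) and Syt10 (5.67 to 55.0 CPM) were detected in every library of all 4 nuclei. Each library holds many cell types, so fewer cells of a type and less RNA per cell cannot be told apart in any value below. Of 42 further clock components 14 were in the table, and Per1, Cry1, Nr1d1 and Nr1d2 were not analysed here.

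Levels between genes were compared per length, as CPM per kb of annotated exon averaged over the 41 libraries. Bhlhe41 and Bhlhe40, the E-box repressors, were highest on this average, at 17.2 and 15.1 CPM per kb. The repressor Cry2 was at 13.0 and the activator Clock at 10.2 CPM per kb. Rora at 7.18, Per3 at 7.04 and Per2 at 4.28 CPM per kb lay between. Ciart at 3.38, Arntl at 2.21 and Dbp at 2.18 CPM per kb were lowest, so the CLOCK partner gene Arntl was listed well below Clock. Among all genes the members ran from the 31.0th percentile of CPM per kb (Dbp) to the 84.5th (Bhlhe41). The order of the highest members differed between nuclei. Bhlhe41 and Bhlhe40 were highest in VMH, at 26.96 and 17.46 CPM per kb. In DMH Cry2 was highest at 16.42 CPM per kb, above Bhlhe40 at 14.58 and Bhlhe41 at 13.08. In PVN Bhlhe41 at 17.23 CPM per kb was followed by Cry2 at 13.07. In ARC Bhlhe40 led at 17.38 CPM per kb, while Bhlhe41 at 10.35 lay below Cry2 at 10.85 and Clock at 10.65. At the median depth the mean level of Dbp rests on 26.8 reads, that of Ciart on 31.3 and that of Clock on 576. The part of read number in the precision of each gene was not tested.

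**Figure D1:**
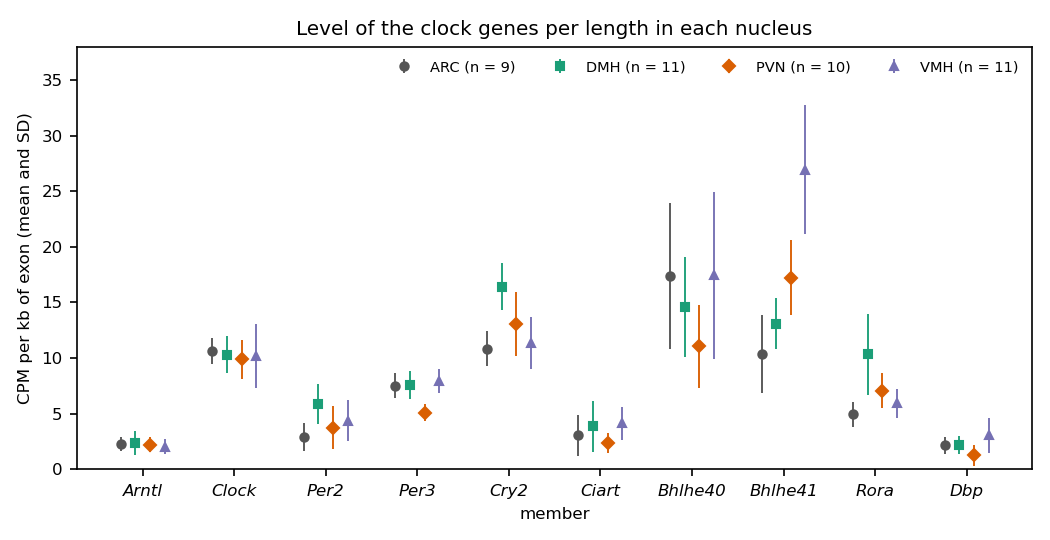
Mean level of each clock gene in each nucleus, in CPM per kb of exon, with the SD over libraries as bars (9 to 11 libraries per nucleus). Bhlhe41 rises from ARC through DMH and PVN to VMH, Rora, Cry2 and Per2 are highest in DMH, and Arntl and Clock lie at nearly the same height in all 4 nuclei.

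Levels were then compared between nuclei within mice. Of the 10 members 7 differed between the 4 nuclei by limma's F-test (adjusted p under 0.1), against 43.3% of all 10121 genes tested. Bhlhe41 rose stepwise from ARC to VMH. By mean level Rora, Cry2 and Per2 were highest in DMH, and Per3, Bhlhe40 and Dbp were lowest in PVN. In pairwise comparisons Per2 in DMH did not pass against VMH, nor Bhlhe40 in PVN against DMH. The activators Arntl and Clock, and the repressor Ciart, did not pass the test. The shares of all genes that passed each pairwise comparison were 18.0% for ARC against DMH, 17.3% for ARC against PVN, 30.2% for ARC against VMH, 18.3% for DMH against PVN, 22.5% for DMH against VMH and 32.0% for PVN against VMH. In the same order 4, 5, 1, 6, 3 and 4 of the 10 members passed.

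Markers of other cell types differed between the nuclei as well. The summed level of 5 oligodendrocyte markers in the table (of 6) was 1114 to 1751 CPM in VMH libraries, against 242 to 753 in ARC, 452 to 1546 in DMH and 350 to 620 in PVN. The 4 endothelial markers (of 6) summed to 186 to 311.4 CPM in PVN, against 81.9 to 160 in DMH, 60.8 to 126 in VMH and 48.0 to 93.1 in ARC. The 3 astrocyte markers (of 6) summed to 84.1 to 147 CPM in ARC, against 129 to 251.4 in VMH, 126 to 331 in PVN and 173 to 331 in DMH. PVN libraries did not overlap with any other nucleus in endothelial markers, while VMH and DMH libraries overlapped in oligodendrocyte markers. The 4 microglial markers (of 6) overlapped throughout, at 31.4 to 93.6 CPM, and the 3 ependymal or tanycyte markers (of 5) summed to 24.3 to 71.2 CPM in ARC and 3.85 to 26.4 elsewhere. The part of these cell types in the differences between nuclei was not tested.

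The activators Arntl and Clock did not pass between nuclei. Arntl (chr7:113207465-113314126, plus strand, on GRCm38 as are the positions below) was at 17.1 ± 4.70 CPM in ARC (SD, n = 9), at 17.9 ± 8.11 in DMH (n = 11), at 16.4 ± 5.09 in PVN (n = 10) and at 15.2 ± 4.82 in VMH (n = 11), and the F-test had an adjusted p of 0.824. Clock (chr5:76209868-76304792, minus strand) was at 146 ± 15.9 CPM in ARC and 141 ± 23.3 in DMH, against 136 ± 24.1 in PVN and 139.6 ± 39.7 in VMH (adjusted p = 0.756). Ube2n-ps1 and Gm43658 lie within Clock on its strand and were not analysed here. For both the spread within nuclei exceeded the difference between nuclei.

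Among the period and cryptochrome repressors, Per2 and Cry2 were highest in DMH and Per3 was lowest in PVN. Per2 (chr1:91415982-91459324, minus strand), which also responds to light and to glucocorticoids, was at 34.2 ± 10.7 CPM in DMH, 25.6 ± 10.9 in VMH, 21.8 ± 11.4 in PVN and 16.96 ± 7.31 in ARC. ARC minus DMH was -1.14 ± 0.27 (log2 difference ± SE, limma, adjusted p = 0.00260). DMH exceeded PVN by 0.78 ± 0.26 (adjusted p = 0.0394), which did not pass without mouse Fast-305 (adjusted p = 0.116). DMH and VMH were neighbours that did not pass (0.62 ± 0.26, adjusted p = 0.105). In fed libraries alone, with 5 or 6 per nucleus, Per2 did not pass the F-test (adjusted p = 0.160). There DMH minus PVN of Per2 was 0.42 (adjusted p = 0.560) and ARC minus DMH was -0.93 (adjusted p = 0.10002), while DMH minus VMH was 0.19 (adjusted p = 0.805), and none of the 3 passed.

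Cry2 (chr2:92403646-92434043, minus strand), whose protein blocks the CLOCK and ARNTL dimer, was at 104 ± 13.4 CPM in DMH, 82.6 ± 18.1 in PVN, 71.8 ± 14.6 in VMH and 68.6 ± 9.71 in ARC. DMH exceeded VMH by 0.50 ± 0.11 (limma, adjusted p = 0.000928), and ARC minus DMH was -0.55 ± 0.12 (adjusted p = 0.000657). The difference of 0.33 ± 0.11 over PVN (adjusted p = 0.0419) did not pass without mouse Fed-111, Fed-125, Fast-311 or Fed-313 (adjusted p of 0.121, 0.143, 0.109 and 0.102). PVN, VMH and ARC were not separated from each other. Per3 (chr4:151003652-151044665, minus strand), a period gene at the margin of the core loop, was at 48.7 ± 7.50 CPM in PVN, 72.2 ± 10.6 in ARC, 72.8 ± 11.8 in DMH and 76.1 ± 10.2 in VMH. PVN libraries reached at most 59.2 CPM, and libraries of the other nuclei began at 47.3. ARC exceeded PVN by 0.57 ± 0.12 (adjusted p = 0.000364), DMH exceeded it by 0.56 ± 0.11 (adjusted p = 0.000254), and PVN minus VMH was -0.63 ± 0.11 (adjusted p = 2.29e-05). ARC, DMH and VMH did not differ beyond their spread, with adjusted p of at least 0.746. Per3 lies wholly inside Camta1 on the same strand, so strand cannot separate reads of the pair, and Camta1 was not analysed here.

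Of the remaining E-box repressors Bhlhe40 and Bhlhe41 differed between nuclei and Ciart did not pass. Ciart (chr3:95878503-95882251, minus strand), also called Chrono, was at 5.37 ± 2.04 CPM in PVN, 6.84 ± 4.10 in ARC, 8.71 ± 5.19 in DMH and 9.31 ± 3.39 in VMH, with an adjusted p of 0.280 by the F-test. Ciart lies wholly inside the antisense gene C920021L13Rik, which was listed at 4.15 CPM on average. Whether strand was used in counting is not given in the sources used here, and without strand reads of the pair cannot be told apart. Arntl, Cry2, Bhlhe41 and Rora also overlap an opposite-strand gene each, none of which was analysed here. Bhlhe40 (chr6:108660629-108666925, plus strand), also called DEC1, was at 81.8 ± 30.8 CPM in ARC, 82.1 ± 35.4 in VMH, 68.6 ± 21.3 in DMH and 51.9 ± 17.4 in PVN. ARC exceeded PVN by 0.67 ± 0.16 (limma, adjusted p = 0.00291) and PVN minus VMH was -0.67 ± 0.16 (adjusted p = 0.00116). DMH lay between and did not pass against any nucleus (adjusted p of at least 0.154).

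Bhlhe41 (chr6:145858243-145865558, minus strand) encodes the related repressor DEC2, known for its part in sleep length. In ARC it ranged from 32.8 to 91.5 CPM with a median of 82.8 (n = 9). In DMH it ranged from 70.0 to 124.8 CPM with a median of 82.9 (n = 11). In PVN it ranged from 90.2 to 148 CPM with a median of 110.3 (n = 10), and in VMH from 102 to 232 with a median of 194 (n = 11). Every VMH library was thus above every ARC library, where 3.91% of all genes did not overlap between the pair. No other member or pair of nuclei was without overlap, against 1.30% of genes for ARC and DMH, 2.50% for ARC and PVN, 1.30% for DMH and PVN, 2.22% for DMH and VMH and 3.99% for PVN and VMH. All 6 pairs of nuclei passed the test for Bhlhe41. VMH was the highest, with PVN minus VMH at -0.71 ± 0.13 (limma, adjusted p = 3.55e-05) and ARC minus VMH at -1.53 ± 0.14 (adjusted p = 3.11e-12). The lower steps were smaller, with DMH minus PVN at -0.38 ± 0.13 (adjusted p = 0.0428) and ARC minus DMH at -0.44 ± 0.14 (adjusted p = 0.0229). DMH minus PVN did not pass without mouse Fast-100, Fed-125 or Fast-311 (adjusted p of 0.106, 0.112 and 0.138), nor ARC minus DMH without Fed-111, where it was -0.27 (0.145). In fed libraries alone DMH minus PVN was -0.21 (adjusted p = 0.630) and ARC minus DMH -0.41 (adjusted p = 0.247), and neither passed.

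Rora (chr9:68653786-69388246, plus strand) encodes the nuclear receptor that activates Arntl. It ranged from 46.7 to 214 CPM in DMH with a median of 136, and from 57.3 to 129 in PVN with a median of 88.0. In VMH the range was 46.1 to 99.1 CPM with a median of 86.5, and in ARC 39.2 to 85.2 with a median of 65.5. DMH libraries were the most spread and overlapped with those of each other nucleus. DMH exceeded PVN by 0.54 ± 0.16 on the log2 scale (limma, adjusted p = 0.0136) and VMH by 0.73 ± 0.16 (adjusted p = 0.000563). In fed libraries alone neither passed, at 0.26 over PVN (adjusted p = 0.627) and 0.55 over VMH (adjusted p = 0.174). ARC minus PVN passed at -0.54 ± 0.16 (adjusted p = 0.0188) and was -0.81 in fed libraries alone (adjusted p = 0.0394). PVN and VMH were neighbours that did not differ beyond their spread (0.18 ± 0.16, adjusted p = 0.437), and neither did ARC and VMH pass (-0.36 ± 0.16, adjusted p = 0.111). ARC minus DMH was -1.08 ± 0.16 (adjusted p = 3.23e-06).

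Dbp (chr7:45705088-45710203, plus strand), the D-box activator of output genes, was at 3.76 ± 2.80 CPM in PVN, 6.40 ± 2.34 in ARC, 6.58 ± 2.44 in DMH and 9.11 ± 4.70 in VMH. PVN minus VMH was -1.23 ± 0.32 (limma, adjusted p = 0.00272). ARC exceeded PVN by 0.87 ± 0.33 (adjusted p = 0.0785) and DMH exceeded it by 0.83 ± 0.32 (adjusted p = 0.0805). The former did not pass without mouse Fast-101, Fed-111, Fed-125, Fed-308, Fed-313 or Fast-86 (adjusted p of 0.106 to 0.189), and the latter without Fast-101, Fed-125, Fast-305, Fed-308 or Fed-313 (0.112 to 0.248). With a pseudocount of 2 both did not pass, at 0.63 (adjusted p = 0.107) and 0.60 (adjusted p = 0.109). In fed libraries alone both were larger and did not pass, at 1.28 (adjusted p = 0.115) and 1.29 (adjusted p = 0.116). Dbp shares 737 bases with Sphk2 on the opposite strand, which was at 46.1 CPM on average.

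**Figure D2:**
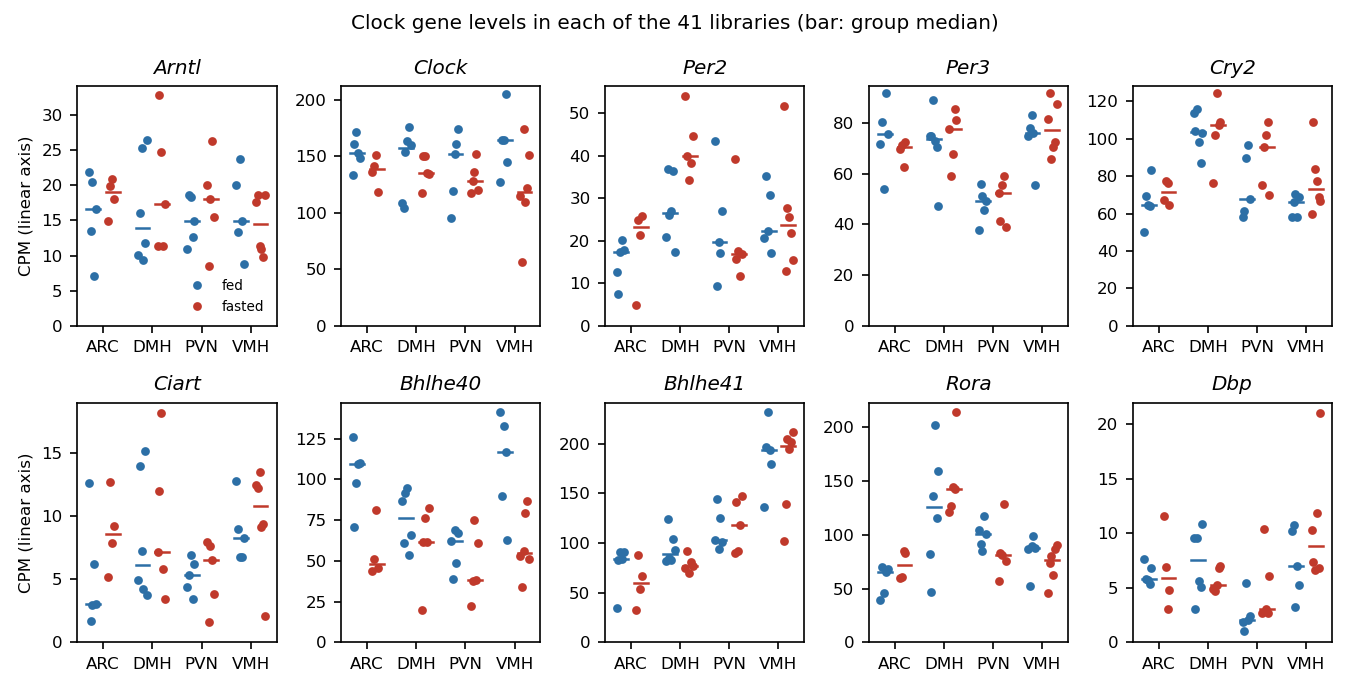
CPM of each clock gene in each library, by nucleus, with fed libraries in blue, fasted in red and a bar at each group's median; the vertical axis is linear and starts at 0. Fasted and fed points overlap in every nucleus of every panel, in Bhlhe40 the fed median is above the fasted one in all 4 nuclei, and Bhlhe41 climbs to 102 to 232 CPM in VMH.

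Fasting was compared with feeding within each nucleus, to ask which clock genes moved with 24 hours without food. Bhlhe40 was the member that passed the test, and it was lower in fasted mice. In ARC 1 of the 10 members passed by limma, against 0.176% of 9654 genes (0.0725% were lower in fasted mice). By the same test 0 members passed in DMH (0.0103% of genes, all of them lower), PVN (0.367%, with 0.0630% lower) and VMH (0.0208%, all of them lower). An unadjusted p under 0.05 was seen for 1 member and 782 of 9654 genes in ARC, 2 members and 646 of 9751 genes in DMH, 0 members and 950 of 9529 genes in PVN, and 2 members and 670 of 9594 genes in VMH. The median log2 difference of the 10 members was 0.035 (ARC), 0.027 (DMH), -0.015 (PVN) and -0.073 (VMH), beside 0.016, 0.012, 0.0058 and -5.2e-05 over all genes.

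The BHLHE40 repressor answers to hypoxia, insulin and activity signals besides the clock. In ARC the fasted libraries held 44.1, 45.5, 51.2 and 81.2 CPM and the fed libraries 70.6, 97.8, 109, 110.3 and 126 CPM. The groups overlapped by 1 pair of libraries, mice Fast-305 and Fed-125. The log2 difference was -0.95 ± 0.20 (SE, limma, adjusted p = 0.0867), and it passed narrowly: leaving out 1 library ended the call in 7 of 9 cases, with adjusted p of 0.218 to 0.425 (without Fast-100, Fast-311, Fast-86, Fed-111, Fed-127, Fed-308 or Fed-313). The call was also lost with a pseudocount of 0.1 (adjusted p = 0.128), with no filter on low values (0.131), with no batch term (0.475) and in 1 fit over all libraries with a random block for the mouse (0.411), with the difference between -0.97 and -0.88 under every setting that kept all libraries. The summed level of 4 endothelial markers in the table (of 6) also differed in ARC, at 48.0 to 74.7 CPM in fasted and 76.2 to 93.1 in fed libraries, and its part in the Bhlhe40 difference was not tested.

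In VMH Bhlhe40 was at 33.7 to 86.9 CPM in fasted libraries with a median of 54.6 (n = 6), and at 63.1, 89.6, 117, 133 and 141 in fed libraries. Mouse Fed-313 lay inside the fasted range, and the log2 difference of -0.83 ± 0.23 did not pass (limma, adjusted p = 0.455), and it was -0.53 without mouse Fed-111. In DMH the fasted libraries held 20.01, 61.3, 61.8, 76.1 and 82.7 CPM and the fed libraries 53.4 to 94.6 with a median of 76.3 (n = 6). These groups overlapped widely, with a log2 difference of -0.53 ± 0.25 (adjusted p = 0.752), which was -0.09 without mouse Fast-86. In PVN the fasted libraries held 22.1, 37.4, 38.2, 61.1 and 75.0 CPM and the fed libraries 38.6, 48.6, 62.2, 67.1 and 69.0, a log2 difference of -0.38 ± 0.26 (adjusted p = 0.683). The PVN difference was -0.10 without mouse Fast-86 and -0.10 without Fed-111, and it was -0.59 without Fast-101 and -0.57 without Fed-125. The highest PVN library was a fasted one. No member had fasted and fed libraries that did not overlap in any nucleus, which was seen for 2.13% of genes in ARC and 0.400% in DMH, and for 1.31% in PVN and 0.50% in VMH. The antisense gene 0610040F04Rik shares 306 bases with Bhlhe40 and averaged 1.39 CPM.

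**Figure D3:**
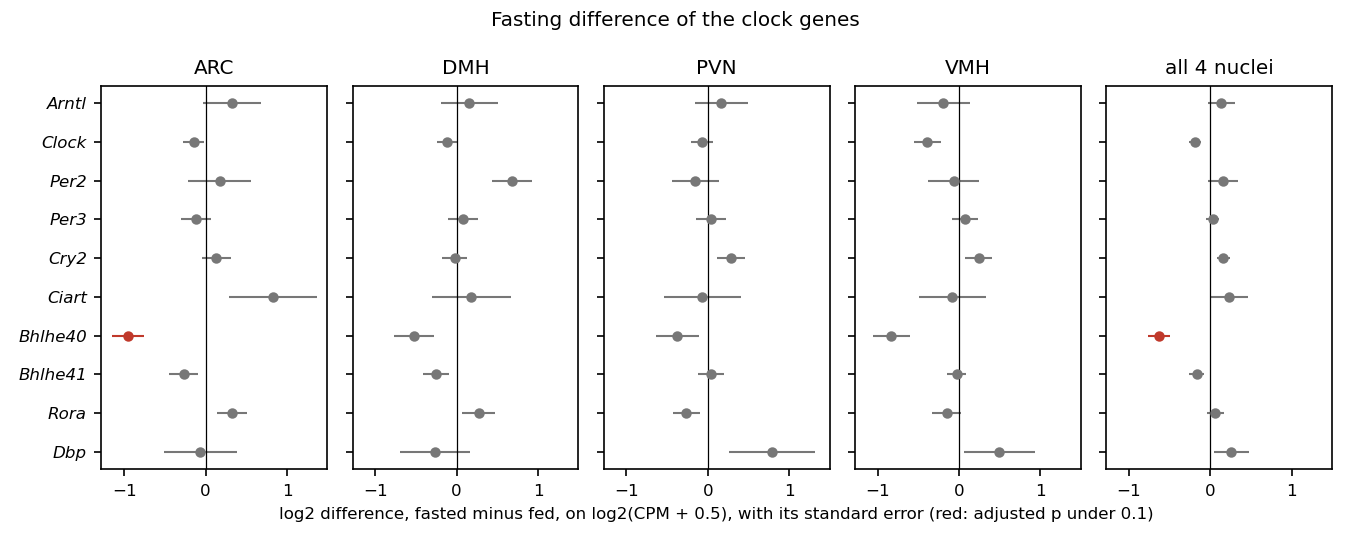
Log2 difference, fasted minus fed, of each clock gene on log2(CPM + 0.5), with the standard error from limma as bars, in each nucleus and over all 4 nuclei; red marks an adjusted p under 0.1. Bhlhe40 lies left of 0 in all 5 panels and is the only member marked, in ARC (-0.95) and over all nuclei (-0.63).

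Averaged over the 4 nuclei, with nucleus and batch as terms and the mouse as a random block, Bhlhe40 was again the member that passed, 1 of 10 against 3.12% of 10121 genes (1.67% passed downwards). Its log2 difference was -0.63 ± 0.14 (limma, adjusted p = 0.00453). That fit used a correlation of -0.0036 between libraries of a mouse, estimated over all genes. For Bhlhe40 alone the correlation within mice was 0.44, the highest of the members, so its libraries were not independent and the SE of this fit is too small for it. With each mouse reduced to the mean of its libraries, the difference was -0.64 ± 0.21, with an unadjusted p of 0.00990 and an adjusted p of 0.475 (limma on 12 mouse means, an alternative chosen after seeing the data), where 0.0198% of genes passed and 865 had an unadjusted p under 0.05. An exact permutation test of state labels within batches over the 12 mice gave an unadjusted p of 0.0278 (2-sided, 216 relabellings). The smallest possible p was 0.00926. With 10 members tested, Bhlhe40 did not pass 0.1 after Benjamini-Hochberg adjustment over them. In both tests on mouse means Fast-85 (VMH) and Fed-92 (DMH), with 1 library each, weighed as much as mice with 3 or 4. Without the batch term the fit over libraries gave an adjusted p of 0.102.

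The difference varied between the 3 batches, which was not tested by itself. In batch 1 it was -1.501 (ARC), -1.84 (DMH), -1.47 (PVN) and -1.73 (VMH), as the difference between group means of log2(CPM + 0.5). In batch 2 the same differences were -0.69, -0.44, 0.04 and -0.70, and in batch 3 they were -0.85, 0.26, -0.24 and -0.36. Each of these rests on 1 or 2 libraries a group, and 10 of the 12 were negative. Batch 1 held mouse Fast-86, with the lowest Bhlhe40 value of every nucleus, and Fed-111, with the highest in ARC and VMH. Without Fast-86 the difference over nuclei was -0.40 ± 0.13 (limma, adjusted p = 0.0921), and without Fed-111 it was -0.45 ± 0.13 (adjusted p = 0.0746). Both come from the fit over libraries, whose SE is too small for Bhlhe40. The fasting difference of Bhlhe40 did not pass a test of differing between nuclei (limma F-test of state by nucleus, adjusted p = 0.942), in which 0% of genes and 0 members passed, and 563 genes and 0 members had an unadjusted p under 0.05.

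**Figure D4:**
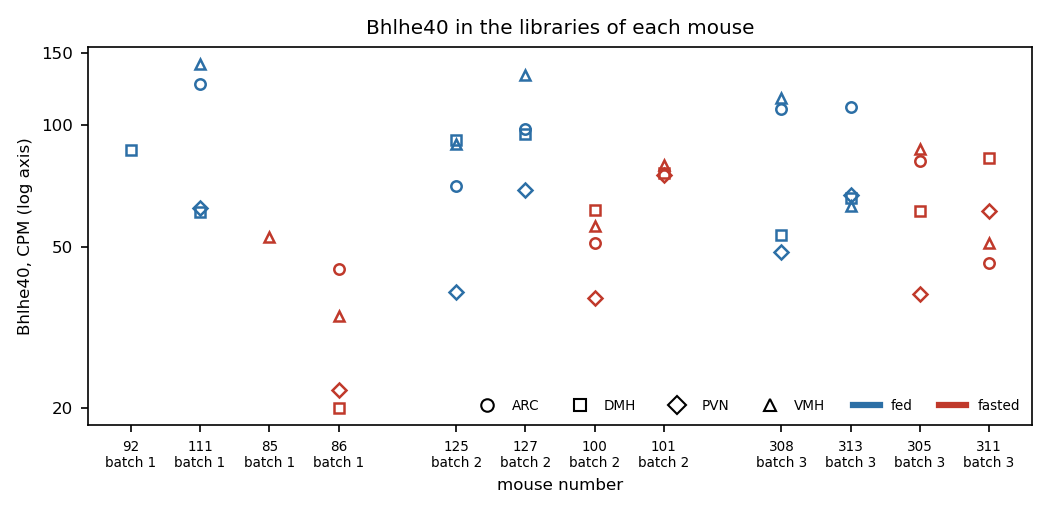
Bhlhe40 in CPM (log axis) in every library, arranged by mouse and batch, with the symbol giving the nucleus, fed mice in blue and fasted mice in red. The libraries of mouse Fast-86 lie between 20.01 and 44.1 CPM, below those of every other mouse in the same nucleus, and the gap between fed and fasted mice is widest in batch 1.

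Libraries of a mouse share the brain, its handling and the time at which it was taken, which cannot be told apart. Whether they deviated together was tested by limma's F-test of the 8 mouse terms left after nucleus, batch and state. These terms hold the differences between mice of the same batch and state, and also the batch-by-state terms. A fasting difference that varied between batches would thus also enter this F, and the parts were not separated. By this test 0 of 10 members passed against 0.484% of genes, and 1 member and 969 of 10121 genes had an unadjusted p under 0.05. That member was Bhlhe40 (F = 4.18, unadjusted p = 0.000983, adjusted p = 0.136), which ranked 72 of 10121 genes. For the other members the within-mouse correlation lay between -0.26 (Rora) and 0.18 (Per3). All within-mouse correlations, that of Bhlhe40 included, were estimated with no batch-by-state term. Dbp and Arntl, whose messages swing through the day in opposite phase in many tissues, had within-mouse correlations of -0.11 and -0.16.

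No fasting difference of the other members passed, in any nucleus or over the 4 nuclei. Per2 in DMH was at 34.2, 38.4, 40.1, 44.7 and 54.0 CPM in fasted libraries and at 17.5 to 36.8 with a median of 26.6 in fed libraries (n = 6). Fasted libraries were the higher, with overlap from 34.2 to 36.8 CPM, and the log2 difference of 0.68 ± 0.24 did not pass among all genes (limma, unadjusted p = 0.0107, adjusted p = 0.695). In the other nuclei the Per2 difference was 0.17 ± 0.39 in ARC, -0.15 ± 0.29 in PVN and -0.07 ± 0.32 in VMH. With 1 library left out they ran from -0.24 to 0.61 (ARC), -0.38 to 0.01 (PVN) and -0.29 to 0.10 (VMH), and each changed sign. Clock was at 56.7 to 174 CPM in fasted VMH libraries with a median of 118 (n = 6) and at 127.4, 145, 164.7, 165 and 205 CPM in fed ones. Its difference there was -0.39 ± 0.17 (limma, unadjusted p = 0.0337, adjusted p = 0.708), and over the 4 nuclei it was -0.19 ± 0.07 (unadjusted p = 0.0135, adjusted p = 0.219). The exact permutation test over mouse means gave -0.15 for Clock (unadjusted p = 0.0463), which did not pass 0.1 after adjustment over the 10 members. Limma on the same means gave Clock an unadjusted p of 0.135 and an adjusted p of 0.678. Cry2 was 0.16 ± 0.08 higher over the nuclei in fasted mice (limma, unadjusted p = 0.0456, adjusted p = 0.371), and 10 of its 12 differences within batch and nucleus were positive, but over mouse means it gave 0.096 (exact permutation, p = 0.278).

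Over the 4 nuclei the remaining log2 differences did not pass. Arntl was at 0.14 ± 0.17, Per3 at 0.03 ± 0.08, Rora at 0.06 ± 0.10, Per2 at 0.15 ± 0.19, Dbp at 0.26 ± 0.22, Ciart at 0.23 ± 0.23 and Bhlhe41 at -0.16 ± 0.09 (limma, adjusted p between 0.452 and 0.915). Among these Per3 had the narrowest error and Ciart the widest. With 1 mouse left out Arntl ran from 0.05 to 0.19, Per3 from -0.03 to 0.09 and Rora from 0.003 to 0.10. Per2 then ran from 0.07 to 0.28, Dbp from 0.15 to 0.39, Ciart from 0.11 to 0.38 and Bhlhe41 from -0.24 to -0.12. On mouse means the differences were 0.23 (Arntl), 0.03 (Per3), 0.04 (Rora), 0.35 (Per2), 0.19 (Dbp), 0.35 (Ciart) and -0.24 (Bhlhe41). Mice Fast-85 and Fed-92 enter these with 1 library each, which for Per2 lay at 1.10 and -0.63 from the nucleus mean. For Dbp and Ciart single nuclei ran from -0.27 ± 0.43 (Dbp in DMH) to 0.83 ± 0.54 (Ciart in ARC) without passing. Both moved with 1 library left out, Dbp in DMH to between -0.44 and -0.13, and Ciart in ARC to 0.19 without mouse Fast-100 and 1.44 without Fast-86 or Fed-111. Clock, Bhlhe41 and Rora were lower in batch 1 than in the other batches, at 111.2, 91.98 and 71.7 CPM on average, against 149.6, 126 and 94.0 in batch 2 and 150.5, 121 and 107.5 in batch 3. These are means over all nuclei, and batch was not tested.

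Members were also compared with each other across the 41 libraries, as Pearson's r of log2(CPM + 0.5) after subtraction of each nucleus mean. These are descriptions, since the libraries share mice, batches and depth. The 45 pairs ran from -0.39 (Dbp and Ciart) to 0.40 (Clock and Bhlhe40). Arntl and Dbp had an r of -0.07, Arntl and Per2 also -0.07, and Per2 and Per3 -0.04. After batch and state means were also subtracted, Dbp and Ciart stood at -0.50, Bhlhe40 and its paralogue Bhlhe41 at -0.48 (0.11 before), and Clock and Bhlhe40 at 0.20. Among 7638 genes with a mean of at least 5 CPM, those most like Dbp were Rab4b (0.58), Col23a1 (0.53), Togaram2, Ppox and Sv2c (0.52 each), and those least like it were Car5b (-0.54), Cd24a (-0.53) and Golt1b (-0.52). Those most like Arntl were Usp5 and Spint2 (0.50 each), Zfp827 and Ica1 (0.49 each) and Sfxn4 (0.48), and those least like it were 5430403G16Rik (-0.56), Shisa2 (-0.55) and Lrrc4 (-0.52). No member was among them, and the 99th percentile of r was 0.37 for Dbp and 0.34 for Arntl.

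Other parts of the clock machinery were described from a list of 42 kinases, ubiquitin ligases, cofactors and paralogues, of which 14 were in the table. The list was chosen with earlier results of these data known, so its counts are descriptions. With fasting 0 of 14 passed in any single nucleus by limma, with 1 or 2 of them at an unadjusted p under 0.05 in each. Over the 4 nuclei 1 rose and 0 fell, against 3.12% of all genes that passed. Usp2, a ubiquitin-specific protease that acts on clock proteins, was 0.71 ± 0.18 higher (adjusted p = 0.0280), and on mouse means 0.63 ± 0.25 (adjusted p = 0.531). Between nuclei 5 of 14 differed, against 43.3% of all genes. Rorb, the paralogue of Rora, was at 333 ± 61.2 CPM in DMH (SD, n = 11), 142 ± 24.5 in PVN (n = 10), 116 ± 27.2 in ARC (n = 9) and 75.8 ± 16.2 in VMH (n = 11), so that Rora and Rorb were both highest in DMH. The other 4 were Nono, Crem, Kdm5a and Fbxl21, each lowest in VMH.

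A list of 20 genes that follow the clock, body temperature or fasting held 9 in the table. It was chosen with earlier results of these data known. Its counts beside the shares of all genes are therefore descriptions and no measure of enrichment. With fasting 0 of the 9 passed by limma in ARC, DMH or VMH, with 4, 2 and 4 of them at an unadjusted p under 0.05. In PVN 2 of the 9 rose, against 0.367% of all genes that passed in either direction. They were the glucocorticoid-responsive Rasd1 by 1.96 ± 0.41 (adjusted p = 0.0637) and the cold-inducible RNA-binding protein gene Cirbp by 0.74 ± 0.17 (adjusted p = 0.0854). Over the 4 nuclei 3 of the 9 rose and 0 fell, against 3.12% of all genes: Cirbp by 0.74 ± 0.11 (adjusted p = 2.27e-05), its relative Rbm3 by 0.75 ± 0.12 (adjusted p = 6.11e-05) and the glucocorticoid-responsive Klf9 by 0.39 ± 0.12 (adjusted p = 0.0706). On mouse means the differences of these 3 genes were 0.82, 0.68 and 0.40, with adjusted p of 0.230, 0.296 and 0.516.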

How the data were processed

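Per the labels and the methods of the study, nuclei were captured from frozen sections, RNA was amplified (Ovation RNA-Seq V2) and libraries were made in 3 batches. The submitters' processing notes name CASAVA 1.7, TopHat2 2.0.11, Cufflinks 2.2.1, edgeR and limma, and the build GRCm38. The authors left out outlier libraries, which can lower the spread, and deposited CPM per Ensembl gene. The counting program and its use of strand are not given in the sources used here. Genes were paired with GENCODE M21 (9891 of 10127). No identifier between ENSMUSG00000000861 and ENSMUSG00000028747 was present. The other 2 columns, named ARC of mice 85 and 92 where the labels have PVN, were not used, so 41 of 43 libraries entered. Depth was estimated from the step between low values, of which 97.8% to 98.7% per library lay within 0.1 of a whole multiple. The table also holds 101 genes with positive values under 0.01 CPM, which is less than 1 read, and a count test was therefore not run.

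Tests used log2(CPM + 0.5), which understates changes of low genes, with limma 3.58.1 in R 4.3.3 (lmFit, eBayes with a trend), 2-sided, adjusted by Benjamini-Hochberg over all genes kept (1 CPM or more in a number of libraries equal to the smaller group's, or in 4 libraries for fits over all nuclei), at an adjusted p under 0.1 as in the study. Fits per nucleus had batch as a term. The fit over nuclei added nucleus and the mouse as a random block, and comparisons of nuclei had the mouse as a fixed block, since nuclei share mice. P values of fits per nucleus rest on the spread between mice and those of nucleus comparisons on the spread within mice. The fit over nuclei, with an estimated correlation of -0.0036 within mice, treats libraries nearly as independent. Amplification makes reads of 1 molecule count more than once. Fits were tried on simulated counts, drawn independently for each library around set differences and with no batch effect. The fit over nuclei was therefore not checked under correlation within mice. The named genes are the 10 members, list genes past the threshold (at most 5 or 3 a comparison) and the 5 highest and 3 lowest correlations with Dbp and Arntl. Alternatives were other pseudocounts, no filter, median-ratio scaling, no batch term, library weights, other uses of the mouse, fed libraries alone, and each library or mouse left out. The members and lists were chosen with earlier results of these data known.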

Additional observations from a re-analysis of the deposited data

Results flagged for a closer look

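Groups of 4 to 6 libraries were checked for a library far from the others, by the gap to its nearest neighbour over the range of the group. Of 80 groups 5 held such a library, where chance gives about 1 in 20. Per2 in the fasted PVN of mouse Fast-86 was at 39.3 CPM, and the next library at 17.6. Dbp in the fasted VMH of mouse Fast-311 was at 20.96 CPM, and the next at 11.9. Bhlhe41 in the fed ARC of mouse Fed-111 was at 35.0 CPM, and the next at 82.8. Rora in the fasted DMH of mouse Fast-311 was at 214 CPM, and the next at 144.0. Rora in the fed VMH of mouse Fed-125 was at 52.0 CPM, and the next at 86.7.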

How the results depend on the processing

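Of 110 member differences that have a direction 25 passed, and 0 of these changed sign under any alternative that was run. Of the 85 that did not pass, 34 changed sign in at least 1 setting and 8 passed in at least 1. Of the 25, 10 did not pass in at least 1 setting other than leaving out (fed libraries alone included), and 7 did not pass with a library or mouse left out. The cause of these losses was not tested, beyond the fewer libraries of such fits.

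Counts of all genes that passed moved as follows. In ARC the 17 became 4 with a pseudocount of 0.1, 5 with no filter and 0 with no batch term, and 3 to 23 with a library left out. In DMH the 1 became 0 with no batch term and 2 with library weights, and 1 to 2 with a library left out. In PVN the 35 became 3 with no batch term and 79 with library weights, and 2 to 31 with a library left out. In VMH the 2 became 1 with no batch term and 5 with library weights, and 1 to 5 with a library left out. In 1 fit over all libraries with the replicate block as a random term, ARC gave 5 and VMH 4. Without the replicate block the Bhlhe40 difference over the nuclei was -0.63 (adjusted p = 0.00491), and Per2 passed between ARC and VMH (adjusted p = 0.0859), which it did not with the block. No other call on a member changed, and the blocks follow the mouse numbers of the labels. The 316 over the nuclei became 18 with no batch term, 2 on mouse means and 148 to 337 with a mouse left out. State by nucleus gave 0, and 1 without mouse Fed-308. Nuclei gave 4383, and 2821 in fed libraries with the replicate block. Mice gave 49, and 2332 with all 11 mouse terms, 11 without mice that gave 1 library and 19 to 78 with a mouse left out. Under all 11 terms, which include batch and state, Bhlhe40 (adjusted p = 8.34e-05), Clock (0.0231) and Bhlhe41 (0.0473) passed. Dbp, Ciart and Arntl rested on the fewest reads, and the limit set by depth was not tested.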
